A study of Danio rerio with 2 samples.

Results

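The cells described here are *s100s*-high inner ear hair cells (IEHCs), barcodes that carry hair cell (HC) genes and many molecules of the calcium-binding protein gene *s100s*. They were chosen by counts of unique molecular identifiers (UMIs), each of which stands for 1 captured RNA molecule. A barcode needed 500 or more detected genes, no more than 20% of its UMIs from mitochondrial genes, and then at least 3 UMIs of *myo6b*, at least 2 of *lhfpl5a*, at least 5 of *s100s*, 0 of *lhfpl5b*, 0 of *atoh1a* and over 2 times as many *s100s* as *cabp5b* UMIs. Of the 29389 deposited barcodes, 213 met the rule, 83 of 10119 in the *hsd17b7* mutant library and 130 of 19270 in the control library.

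Both libraries came from cells sorted for membrane-bound GFP from *Tg(Brn3c:mGFP)* zebrafish larvae at 4 dpf, untreated and dissociated with trypsin. The mutant larvae carried a frameshift deletion in *hsd17b7*, which encodes an enzyme of cholesterol synthesis, and the control larvae were wild type at this gene. The study asked how loss of *hsd17b7* changes the transcripts of HCs. Neither genotype was sequenced in more than 1 library. No p-value was therefore computed, every direction is that of 1 library against 1 other, and genotype cannot be told apart from library, sort or Cell Ranger version. How many larvae entered a sort is not given in the sources used here, and the *Brn3c* reporter also labels neurons.

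HCs turn deflection of their stereocilia into current through a channel complex of TMC, TMIE, LHFPL5 and CIB proteins, which is pulled open by tip links of cadherin 23 and protocadherin 15. Calcium that enters through these channels and at the ribbon synapse is bound by small EF-hand proteins such as parvalbumins, S100 proteins and calmodulin, and is pumped out by calcium ATPases. The zebrafish inner ear holds HCs in maculae, which lie under otoliths, and in cristae, which lie under cupulae, and IEHCs use *lhfpl5a* where lateral line HCs use *lhfpl5b*.

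The libraries held 81920586 (mutant) and 180590990 (control) UMIs. The number of barcodes whose sequence occurred in both was 49, and none of them was a member. The *s100s*-high IEHCs had a median of 16973 UMIs and 3913 genes in the mutant and 16180 UMIs and 4073 genes in the control library, with medians of 2.73% and 2.46% mitochondrial UMIs. The targeted gene was no check of the labels, since a 3′ read lies outside a small deletion. In *s100s*-high IEHCs *hsd17b7* (ENSDARG00000088140) had 410 UMIs in the mutant and 430 in the control library. That is 295 and 188 UMIs per 1000000 UMIs of the summed cells (CPM), a log2 ratio of 0.65. The 95% interval of this ratio was 0.45 to 0.85, and all intervals given cover counting error alone. The gene was therefore not lower in the mutant library, and mutant and control below mean the libraries that carry those labels.

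The comparison set was formed by the other barcodes that passed the *myo6b* and *lhfpl5a* limits, 559 in the mutant and 597 in the control library. Among them, 86 and 65 had no *atoh1a* or *lhfpl5b* and were high in *cabp5b*, 452 and 489 held *atoh1a*, the transcription factor that starts HC differentiation, and 21 and 43 met none of these rules. *s100s*-high IEHCs made up 12.9% of the mutant (exact binomial interval 10.4 to 15.8%) and 17.9% of the control gated barcodes (15.16 to 20.9%), and these intervals overlap. When the other counts of the rule were read after thinning every gated barcode to 4000 UMIs, the shares were 20.9% and 27.3%, so the size of the share depends on depth while its order did not change. Of the barcodes that met every limit but the one on *atoh1a*, there were 201 mutant and 238 control, here called *atoh1a*-positive *s100s*-high barcodes.

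**Figure D1:**
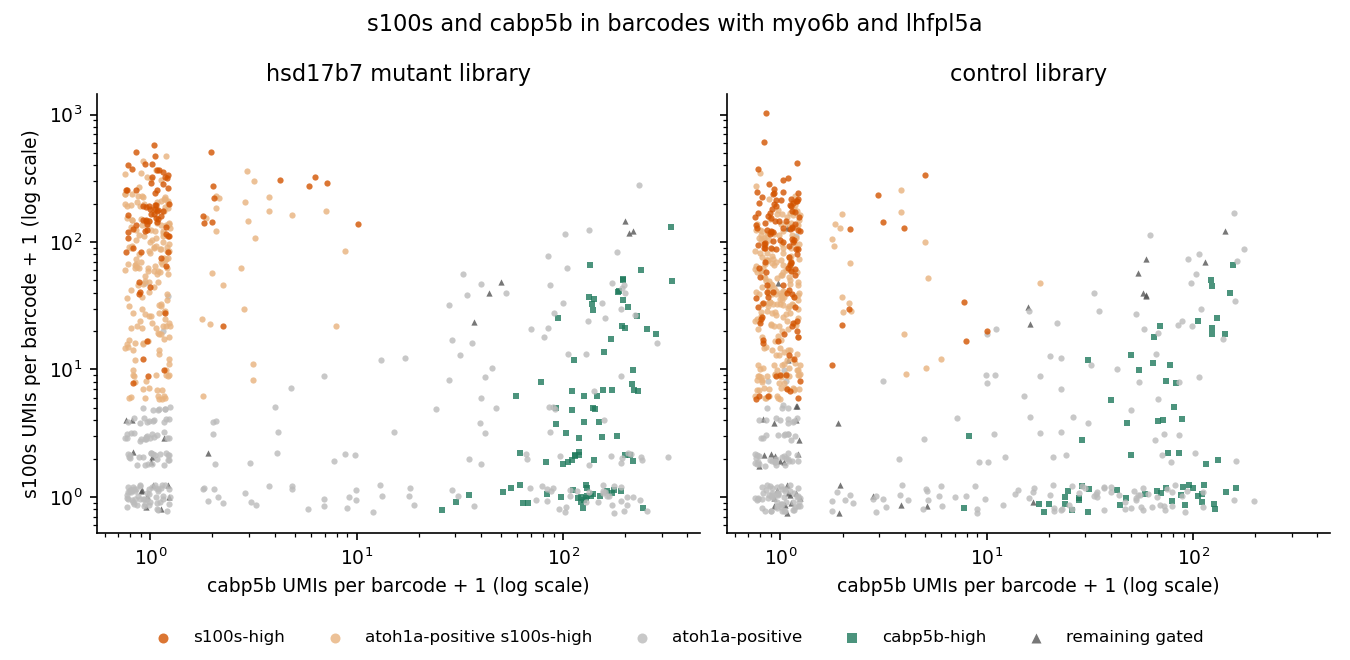
Each point is 1 barcode that passed the *myo6b* and *lhfpl5a* limits, with its *cabp5b* UMIs plus 1 on the x axis and its *s100s* UMIs plus 1 on the y axis (log scales, points spread slightly at random), in the mutant (left) and control (right) library. The 83 mutant and 130 control *s100s*-high IEHCs sit at the upper left of each panel with *atoh1a*-positive *s100s*-high barcodes, apart from the *cabp5b*-high barcodes on the right, and grey points are the other *atoh1a*-positive barcodes.

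*s100s* (ENSDARG00000036773) itself ranged between 7 and 577 UMIs with a median of 166 per mutant member, and between 5 and 1019 with a median of 96 per control member. These values were used to choose the cells and are given as a description. Just inside the limit lay 3 mutant and 10 control members with 5 to 9 *s100s* UMIs. Just outside it lay 31 mutant and 26 control barcodes with 1 to 4, and 40 and 28 with at least 5 *s100s* UMIs but too many of *cabp5b*. No *cabp5b* UMI was seen in 71 of the 83 mutant and 119 of the 130 control members, and the highest count was 9 in each library.

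HC genes outside the rule were present throughout. *otofb*, one of the otoferlin genes that HCs need for vesicle release, had a median of 44 UMIs per mutant and 29.5 per control member and was detected in every one of them. The reporter mGFP stood at 1547 CPM in mutant and 899 CPM in control members, above the other gated barcodes of the same library (1110 and 649 CPM). Markers of other cells differed by list. The 5 inner ear supporting cell markers *stm*, *otogl*, *tectb*, *zpld1a* and *otog* summed to 443 CPM in mutant members against 1033 CPM in the other mutant gated barcodes, and to 341 against 1151 CPM in the control library. The *cabp5b*-high barcodes had less than the members, with sums of 130 CPM in the mutant and 215 CPM in the control library. Against the other gated barcodes, *stm*, *zpld1a* and *otog* were lower in both libraries, and *zpld1a* was at 0 in mutant members. *otogl* (log2 ratios of 0.35 in the mutant and -0.27 in the control library) and *tectb* (0.22 and -0.75) went opposite ways. Both were uneven, as 1 member held 30.8% of the mutant and 1 held 29.1% of the control *otogl* UMIs. For *tectb* these shares were 50.8% and 32.1%. The 3 endothelial markers summed to 0 UMIs in mutant and 5 in control members, and the 2 macrophage markers found in the files to 17 and 12 UMIs (12.2 and 5.25 CPM, against 2.83 and 2.61 CPM in the other gated barcodes). The 4 lateral line supporting cell markers, all detected, came to 54.0 and 31.1 CPM, against 39.4 and 46.0 CPM. All 5 neuron markers were detected, with sums of 200 CPM in mutant and 81.0 CPM in control members, against 139 and 121 CPM in the other gated barcodes. The 4 skin keratins came to 810 and 382 CPM, against 636 and 604 CPM. Of these, *krt91* gave 185.7 CPM in the mutant from a single member. The part of these cells in the results below was not tested.

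Blood RNA differed between the libraries in every HC class. The 10 blood markers, 9 globins and *alas2*, summed to 2 UMIs in the mutant members and to 82462 UMIs, or 36102 CPM, in the control members. *hbae3* was present in all 130 control members. In the other gated barcodes the same markers stood at 6.77 CPM in the mutant and 19052 CPM in the control library. A further feature named after the mitochondrial genome record, NC_002333.4, took 12955 CPM of the mutant and 86609 CPM of the control members. Leaving the NC_002333 features out of the total raises every other level, more in the control than in the mutant library. Counts of genes past 2-fold without them are given as an alternative below. The mutant over control ratios and medians given below keep these features in the total and would be lower without them.

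Some EF-hand calcium buffer genes were far higher in *s100s*-high IEHCs than in the other gated barcodes, although most genes of the calcium buffer list were not. *pvalb9* (ENSDARG00000071601), a parvalbumin, was present in every member. It had a median of 880 UMIs (2 to 3480) per mutant member and 330.5 (1 to 2313) per control member. Summed over the cells it reached 64274 CPM in mutant *s100s*-high IEHCs against 8923 CPM in the other mutant gated barcodes, and 27902 against 2407 CPM in the control library. These are log2 ratios of 2.85 and 3.54. The *cabp5b*-high barcodes had 6560 CPM in the mutant and 1927 CPM in the control library, and the *atoh1a*-positive *s100s*-high barcodes 16201 and 4338 CPM. The groups overlapped barcode by barcode, since members reached down to 208 CPM in the mutant and 56.3 CPM in the control library.

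**Figure D2:**
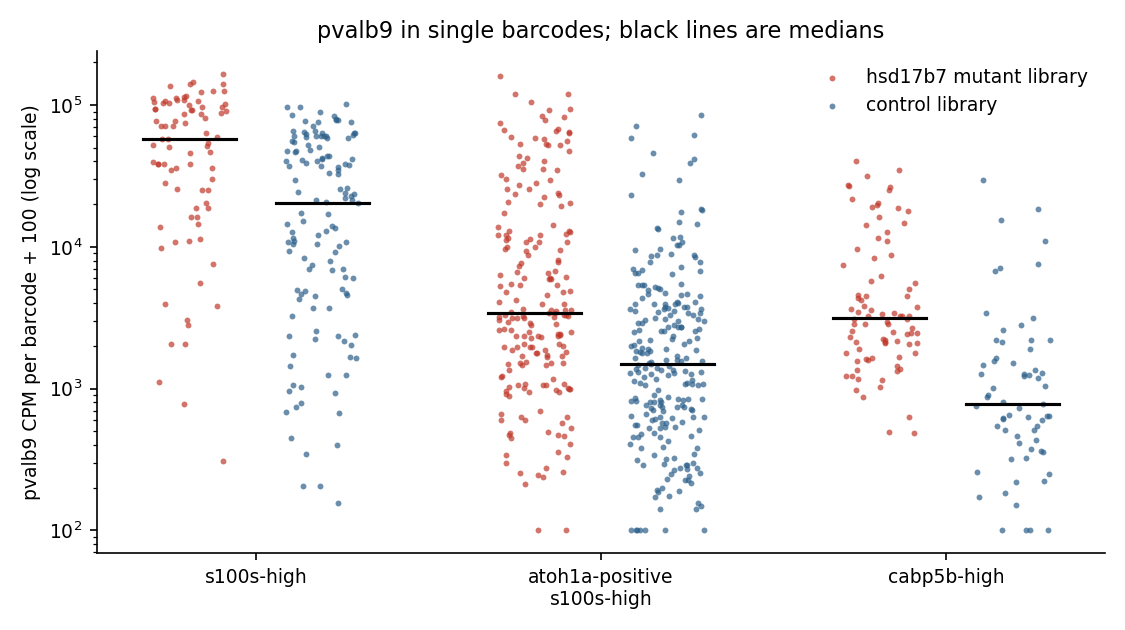
Each point is 1 barcode and gives its *pvalb9* CPM plus 100 (log scale) in *s100s*-high, *atoh1a*-positive *s100s*-high and *cabp5b*-high barcodes, mutant (red) left of control (blue), with a black line at each median. Medians were 57089 CPM in mutant and 20422 CPM in control *s100s*-high IEHCs, against 3339 and 1395 CPM in *atoh1a*-positive *s100s*-high and 3071 and 684 CPM in *cabp5b*-high barcodes.

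Across the transcriptome, 95 of 8204 genes with at least 100 UMIs in each library were at least 2-fold higher in *s100s*-high IEHCs than in the other gated barcodes in both libraries (1.16%), and 258 were at least 2-fold lower in both (3.14%). Since the cells were chosen by their own counts, these are descriptions and not tests. Besides *s100s*, the calcium buffer genes on the higher side were *pvalb9*, *pvalb3*, *s100t* and *cabp2b*. *s100t*, a close relative of *s100s*, stood at 22132 CPM in mutant members against 7408 CPM in the other gated barcodes, and at 11349 against 4913 CPM in the control library. The *cabp5b*-high barcodes had only 483 and 985 CPM of it. *pvalb3* had 80.6 CPM in mutant and 45.5 CPM in control members and 0 UMIs in the *cabp5b*-high barcodes of both libraries, which puts the log2 ratio at 4.81 or more in the mutant and 3.87 or more in the control library, taking a floor of 3 UMIs over the group. *cabp2b*, whose mammalian counterpart slows the inactivation of HC calcium channels, stood at 2482 against 864 CPM in the mutant and 1398 against 539 CPM in the control library.

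Not every EF-hand gene was higher. Of the 20 genes of the calcium buffer and sensor list with enough UMIs, rule genes left out, 5 were above 0 in both libraries and 11 below 0 in both. Over all 8204 genes tested, 1724 were above and 4247 below in both, shares near those of the list. The list's medians were -0.83 in the mutant and -0.40 in the control library, against -0.19 and -0.17 over all genes. The calmodulin gene *calm1a* had 2102 CPM in mutant members against 3966 CPM in the other gated barcodes, and 913 against 2001 CPM in the control library. *cabp1b* was lower too, with log2 ratios of -1.72 and -0.96. *pvalb8* went opposite ways, with -0.79 in the mutant and 1.55 in the control library. *atp2b2*, the plasma membrane calcium ATPase of the stereocilia, was higher, with log2 ratios of 1.65 and 1.31 (269 against 85.8 CPM in the mutant and 254 against 102 CPM in the control library).

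The transduction channel subunits went different ways. *TMC1*, a pore subunit, was low in *s100s*-high IEHCs, with 43.9 CPM in mutant members against 395 CPM in the other gated barcodes and 35.9 against 129 CPM in the control library, log2 ratios of -3.17 and -1.85. A single member held 42.6% of the 61 mutant *TMC1* UMIs. *cib3*, a calcium-binding partner of TMC proteins, was lower in parallel, with only 6 mutant and 10 control UMIs (4.32 against 105 CPM and 4.38 against 34.9 CPM). The other pore subunits were not lower. *tmc2a* stood at 853 against 573 CPM in the mutant and 502 against 357 CPM in the control library, and *tmc2b* at 288 against 169 CPM and 121 against 95.8 CPM. *cib2* had log2 ratios of 0.56 and 0.41, and *tmie*, which links the channel to its surroundings, -0.10 and 0.24. The *cabp5b*-high barcodes had more *tmc2a* than members (1150 CPM in the mutant and 660 CPM in the control library), and the *atoh1a*-positive *s100s*-high barcodes had 223 and 55.1 CPM of *TMC1* and 260 and 132 CPM of *tmc2b*. Of the 9 genes of the channel list, 5 were above 0 in both libraries and 3 below 0 in both, where all 8204 genes tested gave 1724 and 4247.

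*loxhd1b* was among the genes with the largest ratios in both libraries. Its mouse counterpart is a stereocilia protein needed for transduction currents in mature HCs. It had 155 CPM in mutant members against 8.98 CPM in the other gated barcodes, and 91.9 against 7.82 CPM in the control library (log2 4.11, interval 3.72 to 4.52, and 3.56, interval 3.18 to 3.94). Among bundle genes, *myo15ab*, a motor of stereocilia tips, was higher in both libraries (149 against 42.2 CPM in the mutant and 142 against 58.8 CPM in the control library, log2 ratios of 1.82 and 1.28). *espnlb*, which encodes an espin-like actin protein, was lower (9.36 against 149 CPM in the mutant and 35.02 against 133 CPM in the control library). The other bundle genes lay close to even, as 13 of 30 were above 0 in both libraries and 11 below, with medians of 0.03 and 0.06. Over all 8204 genes tested, 1724 were above 0 in both libraries and 4247 below. Of 6 tip link genes, 1 was above 0 in both libraries and 3 below, shares near these. *cdh23* was at 0.04 and -0.27, *pcdh15a* at 0.09 and -0.08, *pcdh15b* at -0.28 and -0.16, *myo7aa* at -0.64 and -0.32 and *ush1c* at -1.23 and -0.89.

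The 2 otoferlin genes parted. *otofb* was slightly higher than in the other gated barcodes (2834 against 2140 CPM in the mutant and 1733 against 1531 CPM in the control library). *otofa* had 215 against 783 CPM in the mutant and 222 against 331 CPM in the control library, and 1587 and 703 CPM in the *cabp5b*-high barcodes. Its counts were uneven, with a median of 0 UMIs in the members of both libraries and a highest count of 61 in the mutant and 43 in the control library. The vesicular glutamate transporter gene *slc17a8* had log2 ratios of 0.10 and 0.54. Over the ribbon synapse list, 6 of 21 genes were above 0 in both libraries and 10 below, with medians of -0.09 and -0.12, again near the shares over all genes.

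Set against the *cabp5b*-high barcodes alone, 80 of 3286 genes were at least 2-fold higher in both libraries (2.43%) and 185 at least 2-fold lower (5.63%). These shares rest on fewer genes and barcodes than those against all other gated barcodes, so they are not compared with them. The potassium channel gene *KCNB2* had 534 CPM in mutant *s100s*-high IEHCs against 4.81 CPM in *cabp5b*-high barcodes, and 1080 against 9.32 CPM in the control library, log2 ratios of 6.80 and 6.86. The T-type calcium channel gene *cacna1ia* stood at 150 against 1.92 CPM and at 130 against 6.22 CPM. *GRIK2*, which encodes a kainate receptor subunit, stood at 164 against 2.88 CPM and 159 against 4.14 CPM. The heparan sulfate enzyme gene *ndst3*, the lipoprotein receptor gene *lrp1bb* and the BMP receptor gene *bmpr1ba* were also among the 12 with the largest ratios. On the lower side were the sodium channel gene *scn5lab* (1 mutant and 8 control UMIs, 0.720 and 3.50 CPM, against 185 and 112 CPM in *cabp5b*-high barcodes), the metalloprotease-like gene *adam11* (43.9 against 648 CPM and 31.5 against 455 CPM) and *ntrk3a*, a neurotrophin receptor gene (15.8 against 181 CPM and 28.02 against 369 CPM).

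Transcription factors divided the same cells. *hmx2*, *hmx3a*, *emx2* and *nr2f1a* are patterning genes of the otic vesicle or its maculae. *emx2*, which in zebrafish and mouse sets the orientation of HCs on one side of a macula, had 52 mutant and 49 control UMIs in *s100s*-high IEHCs (37.4 and 21.45 CPM) and 1 UMI in the *cabp5b*-high barcodes of each library. Its log2 ratios were 5.28 (2.74 to 10.61) in the mutant and 4.37 (1.83 to 9.70) in the control library. *hmx2* had 44.6 against 0.961 CPM in the mutant and 27.6 against 2.07 CPM in the control library. *hmx3a* had 56.9 against 0.961 CPM and 26.7 against 3.11 CPM, and *nr2f1a* 125 against 5.77 CPM and 47.3 against 4.14 CPM. The opposite held for *tbx1*, *prox1a* and *otx1*, which have roles in patterning the ear, *otx1* in the horizontal canal and its crista in mouse and fish. *tbx1* had 2 UMIs in mutant and 7 in control members, against 352 and 131 in *cabp5b*-high barcodes, log2 ratios of -7.88 (-10.93 to -6.01) and -5.47 (-6.81 to -4.39). *prox1a* had 2.88 against 211 CPM in the mutant and 2.63 against 125 CPM in the control library. *otx1* had 1 and 2 UMIs in members, against 64 and 43 in *cabp5b*-high barcodes. Genes that divide maculae from cristae were not fixed as markers, so no sensory patch is assigned to these cells.

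**Figure D3:**
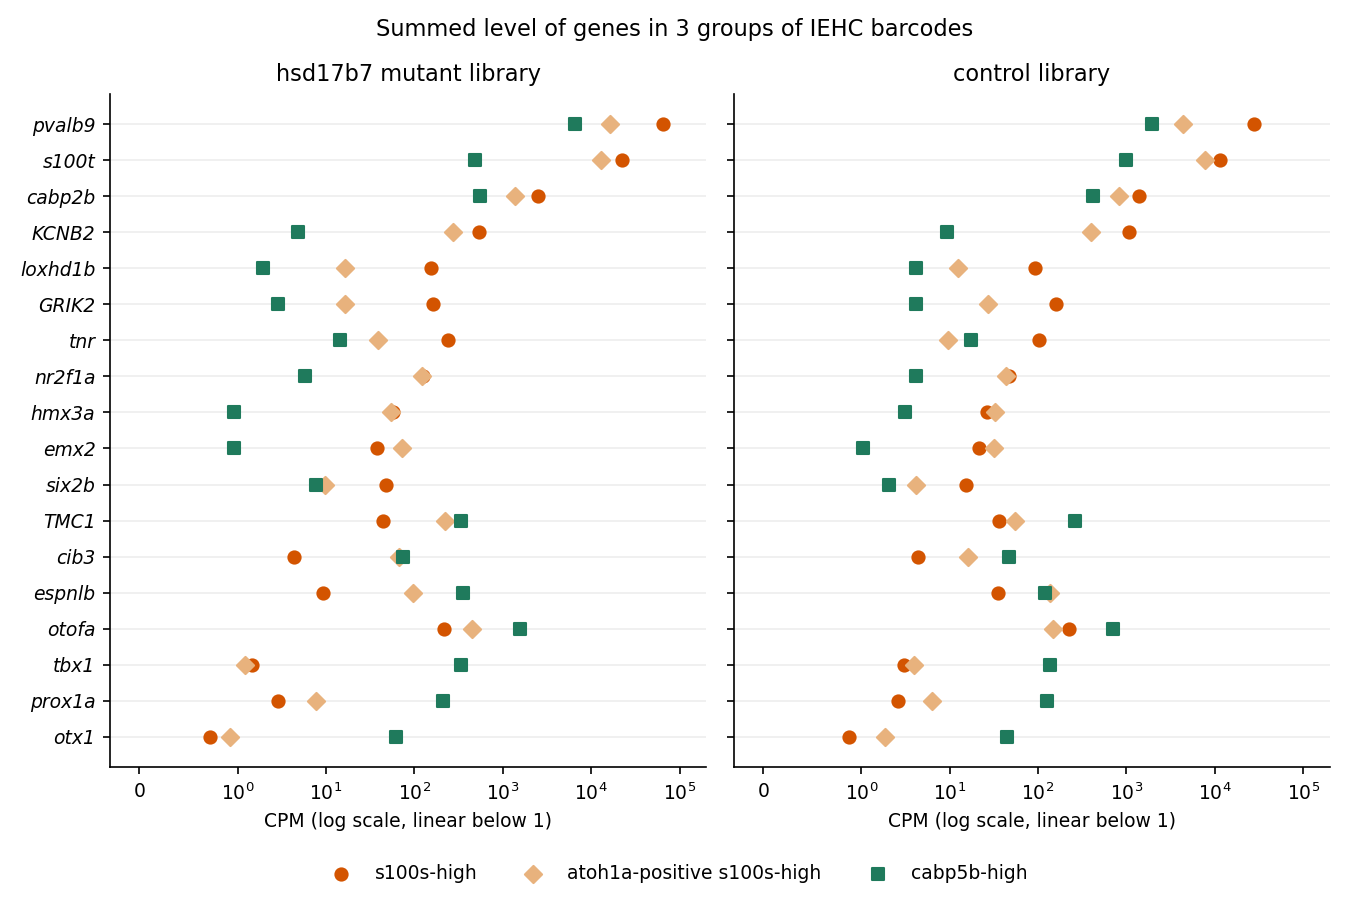
Summed levels (x axis, CPM on a log scale that is linear below 1) of 18 genes (rows) in *s100s*-high IEHCs (circles), *atoh1a*-positive *s100s*-high barcodes (diamonds) and *cabp5b*-high barcodes (squares), mutant left and control right. For *hmx3a*, *emx2*, *nr2f1a*, *tbx1* and *otx1* the circles and diamonds lie within about the same order of magnitude and the squares apart (*emx2* 37.4, 72.9 and 0.961 CPM in the mutant library), while for *loxhd1b* and *GRIK2* the diamonds lie between the other groups (*loxhd1b* 155, 16.2 and 1.92 CPM).

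The closest neighbours were the *atoh1a*-positive *s100s*-high barcodes, which differ by rule only in *atoh1a*. Of 5323 genes, 63 were at least 2-fold higher in *s100s*-high IEHCs in both libraries (1.18%) and 72 at least 2-fold lower (1.35%). The ear patterning genes lay close to even here, with *hmx3a* at log2 0.07 in the mutant and -0.29 in the control library and *nr2f1a* at 0.04 and 0.13. *emx2* was lower, at -0.96 and -0.57. The genes with the largest differences were *loxhd1b* (3.26 and 2.91), *pvalb3* (2.76 and 2.67), *GRIK2* (3.31 and 2.55), the extracellular matrix gene *tnr* (2.61 and 3.43), *kcnd1*, which encodes an A-type potassium channel (2.54 and 3.02), and *tekt3*, a tektin of cilia (1.99 and 2.88). *pvalb9* was higher by 1.99 and 2.69, whereas *s100t* differed by 0.79 and 0.57. *six2b* was higher by 2.30 and 1.88, on only 67 mutant and 35 control UMIs in members. *espnlb* (-3.35 and -1.96) and the septin gene *sept5a* (-3.05 and -2.48) were among the lower ones.

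Against the other gated barcodes, Notch pathway genes were mostly lower in *s100s*-high IEHCs, and HC transcription factors went different ways. Of 20 Notch pathway genes with enough UMIs, 18 were below 0 in both libraries and 0 above, where all 8204 genes tested gave 4247 and 1724. Their medians were -0.92 in the mutant and -1.01 in the control library. The *cabp5b*-high barcodes were also below the full comparison set. The Notch list summed to 760 CPM in mutant members, 897 CPM in *cabp5b*-high and 1130 CPM in all other gated barcodes. In the control library the sums were 586, 778 and 1031 CPM. Of 44 HC transcription factor genes, 27 were below 0 in both libraries and 9 above. Their medians were -0.39 and -0.39, against -0.19 and -0.17 over all genes. The rule requires 0 *atoh1a* UMIs, so genes of differentiation are not independent of the choice of cells. *insm1b*, which is on in newly formed HCs, had 2 mutant and 8 control UMIs (1.44 against 50.5 CPM and 3.50 against 26.6 CPM). *sox2* had log2 ratios of -1.50 and -1.08, *pax2a* -1.05 and -1.31 and *gfi1ab* -1.50 and -1.50. *pou4f3*, the survival factor of HCs whose human name BRN3C the reporter bears, was near even at 0.26 and 0.32. *barhl1b* was the reverse of most of the list, with 50.4 against 19.7 CPM in the mutant and 15.3 against 4.25 CPM in the control library.

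Genes of energy supply and of protein synthesis went opposite ways. Of all 8204 genes tested against the other gated barcodes, 1724 were higher in *s100s*-high IEHCs in both libraries and 4247 lower in both. Of 85 nuclear genes of oxidative phosphorylation, 83 were higher in *s100s*-high IEHCs than in the other gated barcodes in both libraries and 0 lower in both, with medians of 0.51 and 0.41. The list summed to 51657 CPM in mutant members, 45132 CPM in *cabp5b*-high and 35416 CPM in all other gated barcodes. In the control library the sums were 27615, 23162 and 19860 CPM. All 13 protein-coding genes of the mitochondrial genome were higher than in the other gated barcodes in both libraries, with medians of 0.40 and 0.53. Set against the *cabp5b*-high barcodes, their sum was lower in the mutant (28508 against 35851 CPM) and higher in the control library (25298 against 22120 CPM). Of 88 ribosomal protein genes, 84 were lower in both libraries and 3 higher, with medians of -0.48 and -0.41, and 33 of 38 proteasome genes were lower in both. The proteasome list summed to 3978 CPM in mutant members and 4031 CPM in *cabp5b*-high barcodes, and to 2826 and 2923 CPM in the control library. Ribosomal protein genes took 110327 CPM in mutant members against 153430 CPM in the other gated barcodes, and 95604 against 127203 CPM in the control library. The *cabp5b*-high barcodes were lower still, with 68905 CPM in the mutant and 80452 CPM in the control library. Levels in CPM share 1 fixed total, of which *pvalb9* alone took 64274 CPM in mutant members. Of the 25 genes of the axonemal cilia list, 18 were below 0 in both libraries, as were 4247 of all 8204 genes tested. The tubulin gene *tuba1a* was among the 18 (-1.26 and -1.58), but *tekt3* was higher (1.28 and 2.50). Outside that list, *iqca1* and *odf3l2b* were among the 10 lowest genes (1.44 against 66.0 CPM in the mutant and 3.50 against 52.1 CPM in the control library for *iqca1*).

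**Figure D4:**
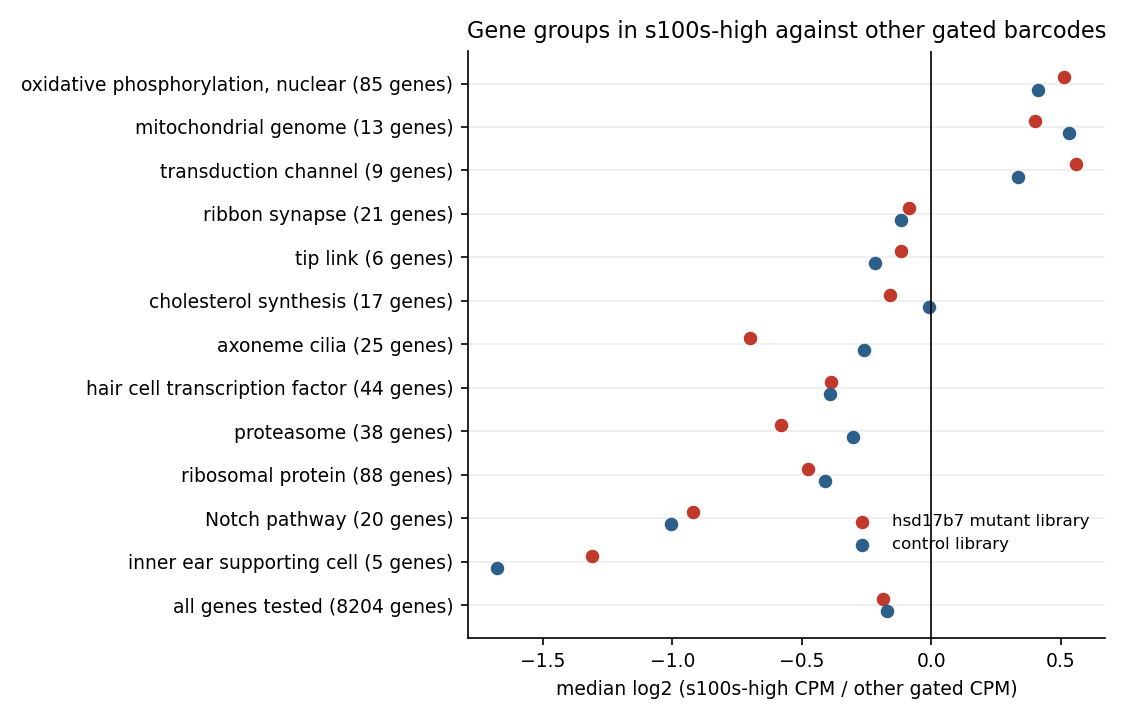
Median log2 ratio of *s100s*-high IEHCs over the other gated barcodes (x axis) for 12 gene lists and for all 8204 genes tested (rows, with the number of genes), mutant (red) and control (blue). Oxidative phosphorylation lies at 0.51 and 0.41, ribosomal protein genes at -0.48 and -0.41 and the Notch pathway at -0.92 and -1.01, against -0.19 and -0.17 over all genes.

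Other genes with the largest ratios over the other gated barcodes in both libraries were *tnr* (3.45 and 3.46), the palmitoyltransferase gene *zdhhc15a* (3.38 and 3.13), *slitrk4*, which encodes a synaptic adhesion protein (2.81 and 2.39), *gramd2aa* (2.38 and 2.30), *znf385b* (2.25 and 2.15) and *si:dkeyp-72h1.1* (3.68 and 3.39). On the lower side stood the inward rectifier gene *kcnj19a*, *si:dkey-57n24.6* and the cupula gene *zpld1a*, which had 0 UMIs in mutant and 15 in control members against 65.0 and 168 CPM in the other gated barcodes. The pituitary hormone genes *smtlb* and *gh1* were also among the 10 lowest, but 1 barcode of the comparison set held 96.8% of the mutant and 98.7% of the control *smtlb* UMIs, and 94.0% and 55.2% of those of *gh1*.

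The *s100s*-high IEHCs varied strongly among themselves in the same buffers. With each member thinned to 4000 UMIs, the variance of *pvalb9* was 132.5 times its mean in the mutant and 104 times in the control library, against a median of 1.25 over 912 genes. *pvalb9* then ranged between 1 and 670 UMIs in mutant and 0 and 393 in control members. The variance of *s100t* was 78.9 and 36.0 times its mean, and for *apoa2*, a lipoprotein gene, 239.7 and 23.5 times. The median of *apoa2* was only 1 UMI in mutant and 0 in control members, with highest counts of 302 and 44 in single members. NC_002333.4, at 39.2 and 52.6 times, *pvalb8*, the chaperone gene *hsp70l* and the features NC_002333.17 and CR383676.2 were also among the 10 most uneven genes outside the rule, with *zgc:158463* and *si:dkey-151g10.6*. Members rich in *pvalb9* were rich in *s100t* (Spearman rho 0.61 over 83 mutant and 0.40 over 130 control members) and in the summed nuclear oxidative phosphorylation genes (0.58 and 0.70). They were poorer in ribosomal protein UMIs (-0.23 and -0.52). The rho with *pvalb9* was 0.36 and 0.57 for *cabp2b*, and 0.00 and 0.12 for *otofb*. These cells share a library and the counts come from 1 fixed total per cell, so the values are descriptions.

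Turning to genotype, 306 of 4756 genes with at least 100 UMIs over both libraries were at least 2-fold higher in mutant than in control *s100s*-high IEHCs (6.43%) and 542 at least 2-fold lower (11.4%). The median over all these genes was 0.05, and 53.2% of them were above 0. Without the NC_002333 features in the totals the numbers were 209 higher and 644 lower. Among the other gated barcodes, 5.17% of 11588 genes were higher and 16.3% lower. More genes reached 100 UMIs in that larger group, so the shares rest on different gene sets and do not compare the 2 groups of cells.

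The calcium buffers were higher in the mutant library. *pvalb9* had 64274 CPM in mutant and 27902 CPM in control *s100s*-high IEHCs, a log2 ratio of 1.204 (1.19 to 1.22), and the ratio was 1.89 in the other gated barcodes. *s100s* had 11663 and 6802 CPM, a ratio of 0.78, in cells chosen by this gene. *calm1a*, lower than elsewhere in these cells, had 2102 CPM in mutant and 913 CPM in control members. *s100t* had a ratio of 0.96 and *cabp2b* of 0.83. *pvalb8* had 1437 and 1044 CPM, a ratio of 0.46, while the ratio in the other gated barcodes was 2.80 (2490 CPM in mutant and 357 CPM in control). Of 13 genes of the list, rule genes left out, 12 were above 0, as were 53.2% of all genes tested. Their median was 0.48 (0.74 in the other gated barcodes). The exception was *caln1*, a calneuron gene, at -1.69 on 27 mutant and 143 control UMIs.

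Transduction and tip link genes went different ways. *tmc2b* had 288 CPM in mutant and 121 CPM in control *s100s*-high IEHCs, a ratio of 1.25 (1.03 to 1.48), and *tmc2a* 853 and 502 CPM, a ratio of 0.77 (0.65 to 0.88). *loxhd1b* had a ratio of 0.76 (0.48 to 1.04). *TMC1*, with 61 and 82 UMIs, was at 0.29 (-0.21 to 0.79), where the other gated barcodes gave 1.61 (1.52 to 1.71). Without the member with the most *TMC1* UMIs in each library, the ratio in *s100s*-high IEHCs was -0.28, so *TMC1* has no settled direction here. Most tip link genes with enough UMIs were on the lower side, with *pcdh15a* at -0.73 (815 CPM in mutant and 1352 CPM in control), *pcdh15b* at -0.90 and *myo7aa*, the motor that tensions the link, at -0.79. *cdh23* was at 0.21 (565 and 488 CPM). The other gated barcodes gave -0.89, -0.79, -0.48 and -0.10 for these 4 genes. Of the 5 tip link genes with 100 UMIs, 0 were 2-fold higher, 0 lower and 1 above 0, where all genes tested gave 6.43%, 11.4% and 53.2%. Below that limit, *ush1ga* was at 1.12 on 41 mutant and 31 control UMIs. Of 26 bundle genes, rule genes left out, 1 was at least 2-fold higher and 0 lower, against 6.43% and 11.4% of all genes tested. The higher one was *myo3a*, a motor of stereocilia tips, with 62.6 CPM in mutant and 25.8 CPM in control members (1.28). *espnlb*, too low to be counted there with 13 mutant and 80 control UMIs, was at -1.90 (-2.87 to -1.05).

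Genes of cholesterol synthesis were mostly on the higher side in the mutant library. Of 10 with enough UMIs, 4 were at least 2-fold higher and 0 lower, where all genes tested gave 6.43% and 11.4%. Their median was 0.96, against 0.05 over all genes tested and 0.88 for the same genes in the other gated barcodes. *hmgcra*, a gene of the rate-limiting reductase, had 57.6 CPM in mutant and 14.9 CPM in control members, a ratio of 1.95 (1.36 to 2.58). *cyp51*, which removes a methyl group from lanosterol, had 61.9 and 20.1 CPM (1.62, 1.09 to 2.17). *fdps* (1.13), *hmgcs1* (1.12) and *msmo1* (1.00) followed, of which *msmo1* was just under 2-fold. *hmgcrb* (-0.48), *sqlea* (-0.28) and *lbr* (-0.85, -1.45 to -0.29) lay on the other side. *insig1*, which holds back sterol synthesis when sterols are plentiful, was at 1.13. The other sterol regulators with enough UMIs, *srebf2* (0.15, -0.26 to 0.56) and *mbtps1* (-0.34, -0.88 to 0.18), had intervals that included 0. Of 10 genes of sterol uptake, transfer and efflux, 7 were above 0, as were 53.2% of all genes tested. Their median was 0.29, with 3 at least 2-fold higher and 1 lower, and their ratios ran from -1.01 to 4.50. The whole list summed to 3165 CPM in mutant and 965 CPM in control members. The sterol transfer gene *osbpl1a* was at 1.16, and *abca1a*, which exports cholesterol, at -1.01 (71.3 CPM in mutant and 143 CPM in control).

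**Figure D5:**
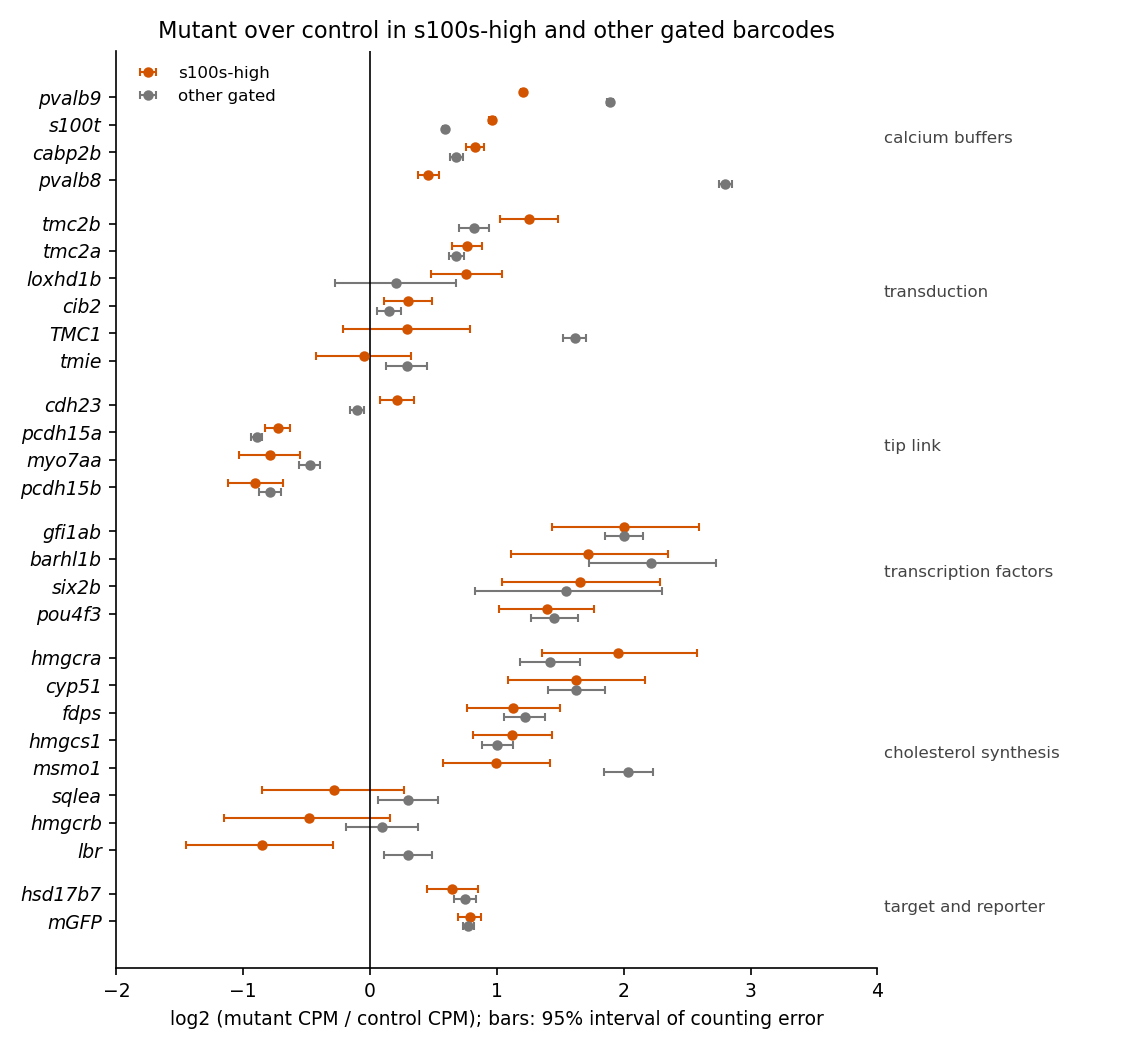
Log2 ratio of mutant over control CPM (x axis) for 28 genes (rows) in *s100s*-high IEHCs (orange) and the other gated barcodes (grey), with 95% intervals of counting error. Of the 8 cholesterol genes shown, 5 such as *hmgcra* (1.95 in *s100s*-high IEHCs) lie right of 0 in both groups, while *pcdh15a*, *pcdh15b* and *myo7aa* lie left of it in both and *pvalb8* (0.46 and 2.80) and *TMC1* (0.29 and 1.61) lie apart.

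Transcription factors of HCs were higher as well. Of 30 with enough UMIs, 9 were at least 2-fold higher and 1 lower, where all genes tested gave 6.43% and 11.4%. Their median was 0.77 (0.91 in the other gated barcodes). *gfi1ab* had 64.8 CPM in mutant and 16.2 CPM in control *s100s*-high IEHCs (2.00), *barhl1b* 50.4 and 15.3 CPM (1.72), *barhl1a* 54.0 and 17.1 CPM (1.66), *six2b* 48.2 and 15.3 CPM (1.65), *nr2f1a* 125 and 47.3 CPM (1.41) and *pou4f3* 114 and 43.3 CPM (1.39). *skor1a* (1.53), *hmx3a* (1.09) and *nr2f2* (1.06) were the other higher ones, and *zbtb20* was lower (13.7 and 37.7 CPM, -1.46).

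The stress genes split into a lower and a higher set. Of 25 heat shock genes, 7 were at least 2-fold lower and 0 higher, where all genes tested gave 11.4% and 6.43%. *hsp90aa1.1*, a gene of inducible cytosolic HSP90, had 2 UMIs in mutant and 1593 in control members (-8.92, -11.97 to -7.07). The HSP90 gene *hsp90aa1.2* lay much closer to even. With every member thinned to the same depth, *hsp90aa1.2* had medians of 29 UMIs in mutant and 35 in control members. *hspa1b* had 25 UMIs in mutant and 497 in control members, *hspa8b* 142 and 2547 and the collagen chaperone gene *serpinh1b* 164 and 1645. *hspb1* stood at 380 and 1575 CPM. *hsp70l* (10157 CPM in mutant and 5630 CPM in control, 0.85) and *hsp70.2* (0.90) were on the other side. The other gated barcodes gave -4.16 for *hsp90aa1.1*, -3.25 for *hspa8b* and 1.13 for *hsp70l*. Immediate early genes, which respond to a stimulus without new protein synthesis, were at least 2-fold lower in 8 of 24 cases and higher in 0. Their median was -0.66, and that in the other gated barcodes was lower still at -0.91. *klf6a* was at -1.95, *fosl1a* at -1.34 and *atf3* at -1.04, while *fosab* was at 0.33 and *jun* at 0.36.

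Of 84 nuclear genes of oxidative phosphorylation, 81 were above 0, as were 53.2% of all genes tested, with a median of 0.92 (0.85 in the other gated barcodes). Of the 84, 36 were at least 2-fold higher in mutant *s100s*-high IEHCs and 1 lower. The lower one was *cox8b*, a subunit gene of cytochrome c oxidase, with 40 mutant and 142 control UMIs (-1.11). Proteasome genes were above 0 in 34 of 35 cases, with a median of 0.52 (0.81 in the other gated barcodes). Ribosomal protein genes had a median of 0.19, with 0 of 83 at least 2-fold higher and 1 lower (*rpl26*, -1.66). Of 17 channel and pump genes, 0 were at least 2-fold higher and 2 lower, a share near the 11.4% of all genes. These were the potassium channel gene *kcnq5a* (47 mutant and 202 control UMIs, -1.39) and *scn1lab*. *KCNB2*, which divided these cells from *cabp5b*-high barcodes, had 534 CPM in mutant and 1080 CPM in control members (-1.02, -1.14 to -0.90), and -0.41 in the other gated barcodes. The sodium channel gene *scn1lab* (14 mutant and 288 control UMIs, -3.65) and *celsr3*, a cadherin of planar polarity (7 and 156, -3.76), were far lower in the mutant, as they were in the other gated barcodes (-3.29 and -3.36).

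Many of the genes at the extremes of the mutant comparison came from few cells. The 12 highest were *ptgdsb.1*, *si:dkeyp-73d8.9*, *krt91*, *gamt*, *si:dkey-4p15.5*, *serpina1*, *apoc1*, *rbp4*, *fetub*, *ttr*, *zgc:123103* and *pklr*, several of them known from liver or skin. A single mutant member held 98.2% of the *ptgdsb.1*, all 258 *krt91* and 81.5% of the *rbp4* UMIs. Another held 72.0% of the *apoc1* and 70.28% of the *serpina1* UMIs. The lowest included *hsp90aa1.1* and the blood genes *alas2* and *cahz*, along with *tyrp1b*, *fthl29* and *hmox1a*. Of these, 1 control member held 63.0% of the *tyrp1b* UMIs and another 98.2% of those of *fthl29* and 98.4% of those of *hmox1a*. By contrast, no control member held over 4.58% of the *hsp90aa1.1* or 16.3% of the *alas2* UMIs. The other lowest genes were *si:ch211-250g4.3*, *fabp1b.1*, *aqp1a.1*, *si:ch211-131k2.3*, *adat2* and *zgc:91968*.

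Among the 3622 genes of which no member held over 10% of the UMIs in either library, a limit set after these values were seen, 209 were at least 2-fold higher in the mutant and 185 lower. The highest included *tuba8l3* (386 CPM in mutant and 64.4 CPM in control *s100s*-high IEHCs, 2.58), the secretory granule chaperone gene *scg5* (393 and 72.7 CPM, 2.43), the tubulin gene *tuba1a* (592 and 145 CPM, 2.03) and *id2a*, an inhibitor of basic helix-loop-helix factors (908 and 253 CPM, 1.85). *tuba8l3* had a ratio of -0.04 in the *cabp5b*-high barcodes, and *id2a* one of 2.37. The lowest included the cell cycle inhibitor gene *cdkn1a* (33.1 and 240 CPM, -2.86), *fgf13a*, which encodes a sodium channel partner (59.0 and 424 CPM, -2.84), the circadian gene *clocka* (-2.54), the scaffold gene *caska* (-2.33) and *odc1*, the first enzyme of polyamine synthesis (87.8 and 407 CPM, -2.21). A gene with at least 1 but fewer than 10 UMIs in a library always exceeds the 10% limit. Genes nearly absent from 1 library, such as *celsr3* with 7 mutant and 156 control UMIs, are therefore missing from these counts and extremes.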

How the data were processed

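Libraries were made with the 10x Genomics Chromium 3′ v4 kit. The authors deposited matrices of raw UMI counts with 32059 features, written by Cell Ranger 9.0.1 for the mutant and 7.1.0 for the control library per the file headers, on GRCz11 per the submitters' processing notes. Seurat and Harmony steps of the study were not repeated. Features that share a symbol (1237) were summed, which left 31353. UMIs of a cell group were summed, divided by the group's total (CPM) and compared as log2 ratios, with exact Poisson and conditional binomial 95% intervals for CPM and ratios. These ratio functions were tested on simulated data. Genes needed 100 UMIs in a comparison, and a group at 0 was set to 3 UMIs. The study gated cells in sorting to exclude doublets, before the libraries were made, and no barcode was removed here. Scrublet in scanpy 1.11.5 scored the barcodes, and the 8% highest scores were left out as an alternative. These held 12 of 83 mutant and 27 of 130 control members, more than 8% of each. Named genes were the rule, marker, target and reporter genes, the 12 highest and 10 lowest ratios against the other gated barcodes, the 12 highest and 12 lowest mutant over control ratios without globins, list genes with 100 UMIs and the 10 most uneven genes. Others were named after their values were seen, namely genes among the 12 largest ratios per direction against *cabp5b*-high and *atoh1a*-positive *s100s*-high barcodes and among genes spread over cells. Members, lists and rules were chosen with earlier results of these data known. No sequence or coordinate was used.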

Additional observations from a re-analysis of the deposited data

Results flagged for a closer look

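For 3 of the genes named, mutant over control ratios of opposite sign in *s100s*-high IEHCs and *cabp5b*-high barcodes are described here. These differences were not tested. They are not all such genes, since *cdh23*, for example, was at 0.21 and -0.11. *krt91*, a keratin gene, was at log2 5.92 in *s100s*-high IEHCs and at -5.21 or lower in *cabp5b*-high barcodes, whose mutant count of 0 was set to 3 UMIs. In the control library, 1 *cabp5b*-high barcode held 98.1% of the 103 *krt91* UMIs of that group. All 258 *krt91* UMIs of the mutant members came from 1 member with 17785 UMIs and only 7 of *s100s*, which also held 517 of the 634 *rbp4* UMIs. *s100t* was at 0.96 in *s100s*-high IEHCs and -1.03 in *cabp5b*-high barcodes, where 1 barcode held 38.2% of the mutant and another 15.14% of the control UMIs. *tmc2b* was at 1.25 in *s100s*-high IEHCs and -0.60 in *cabp5b*-high barcodes, on 42.3 CPM in the mutant and 64.2 CPM in the control *cabp5b*-high barcodes.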

How the results depend on the processing

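The count of genes past 2-fold depends on the UMIs needed per gene and on depth. With cells thinned to 4000 UMIs, 92 genes were higher and 124 lower in mutant *s100s*-high IEHCs, and 45 were higher and 115 lower than in the other gated barcodes. With 300 UMIs per gene the numbers were 118, 185, 59 and 120, and with 10 UMIs per gene 1412, 2828, 211 and 690. Fewer or more genes are tested under each of these settings. Other *s100s* limits, stricter cell filters, the mean of per-cell CPM, other totals and leaving out shared barcodes or high Scrublet scores kept these counts within 1.5 times. Leaving out, gene by gene, the member with the most UMIs in each library gave 296 higher and 578 lower. With the other counts of the rule read after thinning to 4000 UMIs, members made up 20.9% of the mutant and 27.3% of the control gated barcodes. The settings without the top member, without NC_002333 features and with thinned rule counts were chosen after seeing the data. *krt91* reversed, to -0.58 in the mutant comparison with at least 10 *s100s* UMIs and to -0.0198 without its top member. *gh1* reversed against the other gated barcodes when the 8% highest Scrublet scores were left out, to 0.0915 in the mutant and 0.28 in the control library. The median of the skin list over the other gated barcodes in the mutant library became -0.83 with at least 10 *s100s* UMIs, -0.21 thinned and -0.23 with 300 UMIs per gene. The median of the Notch pathway in mutant over control became -0.32 thinned and -0.31 with 300 UMIs per gene, so its 6 genes give no direction. *TMC1* changed sign in the mutant comparison, to -0.28 without its top member in each library, and is not among the reversals counted next. Of the values of single genes under these settings, 2735 stayed within their interval, 263 moved and 4 were counted as reversed, those of *krt91* and *gh1*. Of list medians 817 stayed and 63 moved. No paired analysis was possible because each genotype has 1 library and no test was made. Each gene's precision is limited by its UMIs, and variation between larvae was not measured.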
